A study of Homo sapiens with 4 samples.

Results

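JUN, JUNB, FOS, FOSB, EGR1, IER2, IER3, DUSP2, GADD45B and ATF3 are genes that cells switch on within minutes to hours of growth signals, cytokines or stress. The group was set by gene name, and its probes were those whose annotated symbol is 1 of these 10 genes. Of the 10 genes, 9 had a probe with values on at least 3 of the 4 arrays, out of 4604 named genes on the array, and IER3 had no annotated probe in the table. The 9 genes had 26 probes, of which 13 had values on all 4 arrays, 3 on 3 arrays, 4 on 1 or 2 arrays and 6 on none.

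The samples were EJM cells, an established human multiple myeloma line (a malignancy of plasma cells, the antibody-secreting cells), that carry the IκBα super-repressor under control of the tetracycline repressor. IκBα binds NF-κB transcription factors and keeps them out of the nucleus, and the super-repressor form resists the signal-induced breakdown that normally frees them. Cells that had received doxycycline (20 µg/ml, 37 °C) over 1, 2, 3 or 4 days were each compared with uninduced cells of the same line on 1 two-colour spotted cDNA array per day, 4 arrays in all. The induced and the uninduced cells both carry the transgene, and the sources used here do not say whether the line is a single clone. Cells with doxycycline and no transgene were not analysed here, so induction and doxycycline itself cannot be told apart.

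Immediate early genes are transcribed from factors already present in the cell, without new protein synthesis. Serum response factor, which binds serum response elements, and CREB, which binds cyclic AMP response elements, are the classical activators, and MAP kinases lie upstream of both. The products include the JUN and FOS proteins, which pair through leucine zippers to form AP-1, together with ATF3, EGR1 and regulators such as DUSP2 and GADD45B that feed back on MAP kinase signalling. NF-κB is known to contribute to the induction of several of these genes, among them IER3 and GADD45B.

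The stretch before each transcription start was searched for the elements named above, since these are the sequences through which this class of genes is usually described. Of the 9 measured genes, all had an entry in the RefSeq promoter table (GRCh38.p14), with 10 windows of 250 bases before the start because ATF3 has more than 1 start. Both strands were searched for the serum response element, the κB consensus, the AP-1 element TGANTCA, the cyclic AMP response element TGACGTCA and the EGR1 element GCGNGGGCG. The serum response element was found in 1 gene, EGR1, against 1.16% of all 35116 promoter windows of that length. The EGR1 element was found in 3 genes, EGR1, DUSP2 and GADD45B, against 8.41% of all windows. Bases further from the start were not searched, so a gene without a match here, FOS included, may hold either element elsewhere. The κB consensus (5.21% of all windows), the AP-1 element (6.57%) and the cyclic AMP response element (1.65%) were found in 0 of the 9 genes, which says only that these letters are not in these windows. The windows that held a match are printed 5′ to 3′ with the matches in capitals, and that of FOS is printed because FOS had the largest slope over the days. In the EGR1 window the capitals mark, in order, the EGR1 element and the pair of serum response elements, and in the DUSP2 and GADD45B windows they mark EGR1 elements. No matches overlapped one another.
EGR1 (chr5:138465229-138465478, plus strand): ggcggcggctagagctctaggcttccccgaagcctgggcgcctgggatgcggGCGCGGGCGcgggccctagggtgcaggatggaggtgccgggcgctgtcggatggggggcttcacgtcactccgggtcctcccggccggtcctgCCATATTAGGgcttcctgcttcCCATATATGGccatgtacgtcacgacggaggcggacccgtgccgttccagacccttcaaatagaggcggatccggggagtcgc
DUSP2 (chr2:96145441-96145690, minus strand): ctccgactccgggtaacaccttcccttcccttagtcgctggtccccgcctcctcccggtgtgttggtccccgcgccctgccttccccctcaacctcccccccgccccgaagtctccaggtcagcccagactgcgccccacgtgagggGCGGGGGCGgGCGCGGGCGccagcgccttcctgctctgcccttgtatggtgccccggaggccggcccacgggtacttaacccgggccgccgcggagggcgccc
GADD45B (chr19:2475877-2476126, plus strand): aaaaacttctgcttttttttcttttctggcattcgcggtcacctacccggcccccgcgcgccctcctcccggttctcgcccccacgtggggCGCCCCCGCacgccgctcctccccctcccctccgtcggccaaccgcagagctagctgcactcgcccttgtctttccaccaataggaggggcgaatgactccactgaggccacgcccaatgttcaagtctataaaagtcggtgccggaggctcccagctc
FOS (chr14:75278578-75278827, plus strand): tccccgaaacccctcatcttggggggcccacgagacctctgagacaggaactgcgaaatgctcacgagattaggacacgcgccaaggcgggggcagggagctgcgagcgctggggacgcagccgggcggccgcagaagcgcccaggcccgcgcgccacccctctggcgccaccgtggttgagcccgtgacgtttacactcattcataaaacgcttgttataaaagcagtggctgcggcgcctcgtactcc

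The deposited values are log ratios, taken here as log2 of induced (Cy5) over uninduced (Cy3), so they give differences between the channels and no level of any gene. The sign rests on the dyes in the labels, which name no dye swap, and would be opposite if the ratio had been formed the other way round. The log base is not stated either, and with a natural log each change on the log2 scale would be larger by a constant factor. Because the values are ratios, the plasma cell identity of the line cannot be checked from marker levels. The day 1 and day 2 arrays held fewer values (11386 and 10321 of 15246 probes) and were more widely spread (SD over probes 0.517 and 0.569) than those of days 3 and 4 (13544 and 13872 probes, SD 0.345 and 0.38).

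The first comparison asked whether these genes differed between induced and uninduced cells. None of the 9 genes passed on the mean over the arrays (limma, 0 of 9 at an adjusted p under 0.05, and 0 at an unadjusted p under 0.05), against 0.337% of all 7713 features tested at the adjusted and 12.5% at the unadjusted threshold. A feature is a gene with its probes averaged, or a probe with no gene name. Of the 9 means, 6 lay below 0 and 3 above, with a median of -0.11, while 56.0% of all features lay below 0, with a median of -0.03. Adjusted p-values ran from 0.525 for EGR1 to 0.911 for DUSP2. The 95% intervals of the 9 means reached from a fold of 0.604 (IER2) to a fold of 1.47 (EGR1). With values read as log2, a 2-fold change in either direction thus lay outside the interval of every gene mean. This holds for probe averages only. With every probe tested on its own, the log2 intervals of FOSB probe 28632_1 (-0.089 to 1.024) and IER2 probe 20183_1 (-0.676 to 1.023) included 2-fold higher. Read as natural logs, 2-fold lower lay inside 2 of the gene intervals, those of IER2 (fold 0.484 to 1.29) and ATF3 (0.497 to 1.13). These p-values and intervals measure only the spread between arrays of different days. Nothing in the labels says that the 4 inductions were separate cultures.

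**Figure D1:**
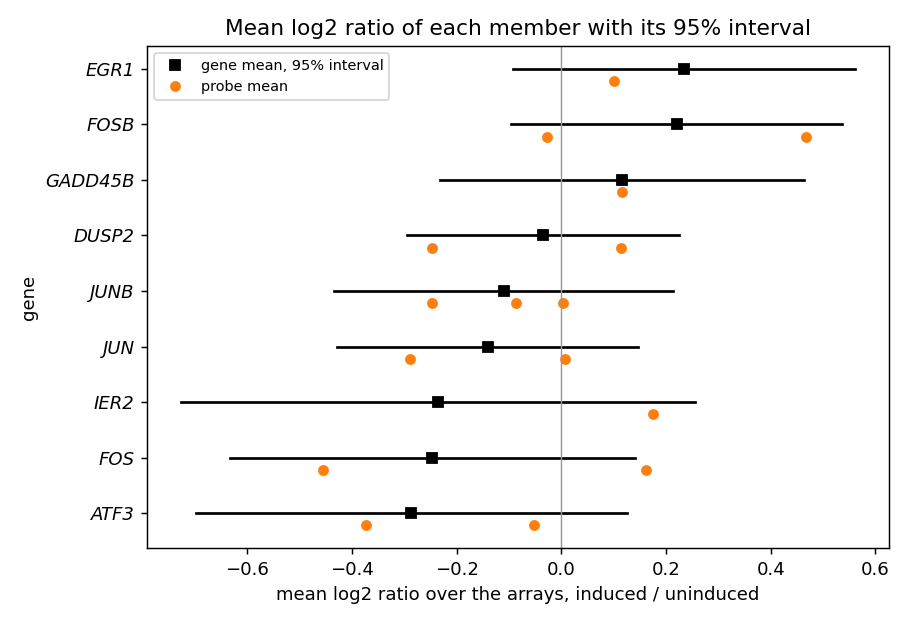
Mean log2 ratio, induced over uninduced, for each of the 9 genes (squares) with its 95% interval from limma (lines), and for each probe with at least 3 values (circles). Every gene interval includes 0, and probes of JUN, JUNB, FOS, FOSB and DUSP2 lie on both sides of 0. The JUN and JUNB probes above 0 are at 0.006 and 0.003, and the FOSB probe below 0 is at -0.027.

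Among the AP-1 genes, FOS and JUN were below 0 on days 1 to 3, and JUNB on days 2 and 4. FOS, the founding AP-1 partner of JUN, had log2 ratios of -0.64, -0.50, -0.02 and 0.17 on days 1, 2, 3 and 4. It was low on days 1 and 2, near 0 on day 3 and above 0 on day 4. The mean of -0.25 ± 0.39 (SD, 4 arrays) had a 95% interval of -0.63 to 0.14 (limma adjusted p = 0.564).

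The FOS probes differed in sign but moved in the same order. Probe 17279_1 read -0.64, -0.74, -0.29 and -0.16 on days 1 to 4 and was below 0 every day. Probe 28326_1 had no day 1 value and read -0.26, 0.24 and 0.50 on days 2 to 4. Both were higher on day 4 than on day 3, and on day 3 than on day 2. The third FOS probe had no value on any array. With every probe tested on its own, 17279_1 had a mean of -0.46 ± 0.28 (SD, 4 arrays; limma adjusted p = 0.252, unadjusted p = 0.0158).

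JUN, the AP-1 subunit that can bind DNA as a pair with itself or with FOS, had log2 ratios of -0.27, -0.26, -0.17 and 0.13 on days 1 to 4. It was below 0 on the first 3 days and above 0 on day 4. The mean was -0.14 ± 0.19 (SD, 4 arrays; limma adjusted p = 0.648). Its probes agreed on day 1 (-0.26 for 16552_1 and -0.27 for 28205_1) and parted on day 2 (0.24 and -0.75), so the day 2 gene value averages readings of opposite sign. The other 3 of the 5 JUN probes had no values.

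JUNB, which binds the same DNA element as JUN and is the weaker activator, had log2 ratios of 0.20, -0.26, 0.01 and -0.40 on days 1 to 4. It alternated in sign, with its lowest value on day 4. The mean was -0.11 ± 0.27 (SD, 4 arrays; limma adjusted p = 0.758). Of the 3 JUNB probes with values, 28950_1 was below 0 every day (-0.21, -0.07, -0.17 and -0.53), while 17346_1 and 34634_1 were above 0 on days 1 and 3 and below 0 on days 2 and 4. All 3 were below 0 on day 4, at -0.53, -0.35 and -0.30, and the fourth JUNB probe had no values.

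FOSB, another FOS family partner of JUN, had log2 ratios of 0.28, -0.15, 0.32 and 0.43 on days 1 to 4. It was above 0 on every day but day 2. The mean was 0.22 ± 0.25 (SD, 4 arrays; limma adjusted p = 0.533). On day 1 its probes were far apart, at 1.28 for 28632_1 and -0.72 for 36084_1. On days 3 and 4 they lay close together, at 0.34 and 0.30, and at 0.52 and 0.33. The day 1 value of FOSB therefore averages readings of opposite sign, and the later values do not.

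ATF3, a stress-induced ATF/CREB family factor that represses or activates depending on its partner, had the largest absolute mean of the 9 genes over the 4 arrays. Its log2 ratios were -0.21, -0.90, -0.11 and 0.07 on days 1 to 4. Day 2 stood lowest, at percentile 4.5 of all features on that array. The mean was -0.29 ± 0.43 (SD, 4 arrays; limma adjusted p = 0.533). Without the day 2 array it was -0.08, closer to 0 than FOSB (0.34) and EGR1 (0.30) without that array, so its place as the largest rests on day 2.

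The ATF3 probes gave different pictures. Probe 15980_1 was below 0 every day, at -0.29, -0.53, -0.26 and -0.42, with a mean of -0.37 ± 0.13 (SD, 4 arrays; limma adjusted p = 0.259, unadjusted p = 0.017). Probe 26521_1 read -0.13, -1.27, 0.34 and 0.84, and probe 28544_1 had values only on days 3 and 4, at -0.41 and -0.22. The day 4 gene value of 0.07 therefore averages 2 probes below 0 and 1 above.

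EGR1, a zinc finger factor whose promoter window above holds both serum response elements, had log2 ratios of 0.19, 0.03, 0.63 and 0.08 on days 1 to 4. It was the only 1 of the 8 genes measured on all 4 arrays that kept its sign throughout, as did 25.1% of all features with 4 values. The mean was 0.23 ± 0.27 (SD, 4 arrays; limma adjusted p = 0.525). The day 3 value averages probe 16864_1 at 0.10 with probe 26362_1 at 1.16, which had a value on no other day. On probe 16864_1 alone the values were 0.19, 0.03, 0.10 and 0.08, with a mean of 0.10 ± 0.07 (SD, 4 arrays). The third EGR1 probe had no values.

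IER2, a small nuclear protein induced with FOS and EGR1, had log2 ratios of -0.60 on day 1, 0.28 on day 3 and -0.39 on day 4, and no value on day 2. Its mean of -0.24 ± 0.46 (SD, 3 arrays; limma adjusted p = 0.65) rests on different probes on different days. Probe 20183_1, the only IER2 probe with more than 1 value, read -0.60, 1.26 and -0.14 on days 1, 3 and 4, with a mean of 0.17 ± 0.97 (SD, 3 arrays). Probe 20170_1 read -0.70 on day 3 and probe 20171_1 read -0.63 on day 4. On day 3 the IER2 probes thus lay on opposite sides of 0. IER3, an immediate early regulator of cell survival, could not be read here.

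DUSP2, a nuclear phosphatase that switches off MAP kinases, had log2 ratios of 0.06, -0.06, 0.01 and -0.16 on days 1 to 4. It had the narrowest range of the 9 genes, 0.218 log2 units. The mean was -0.04 ± 0.09 (SD, 4 arrays; limma adjusted p = 0.911). This small average covers probes of opposite sign, since 17185_1 read -0.18, -0.29 and -0.27 on days 1, 2 and 4, and 27686_1 read 0.30, 0.18, 0.01 and -0.04 on days 1 to 4.

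GADD45B, a stress protein that binds kinases of the p38 and JNK pathways, was measured by the single probe 26633_1, at 0.46, -0.02, 0.28 and -0.26 on days 1 to 4. It was above 0 on days 1 and 3 and below 0 on days 2 and 4, the same order of signs as JUNB. The mean was 0.12 ± 0.31 (SD, 4 arrays; limma adjusted p = 0.764). The DUSP2 and GADD45B windows printed above both hold EGR1 elements, as do 8.41% of all windows. A link between these elements and the ratios was not tested.

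**Figure D2:**
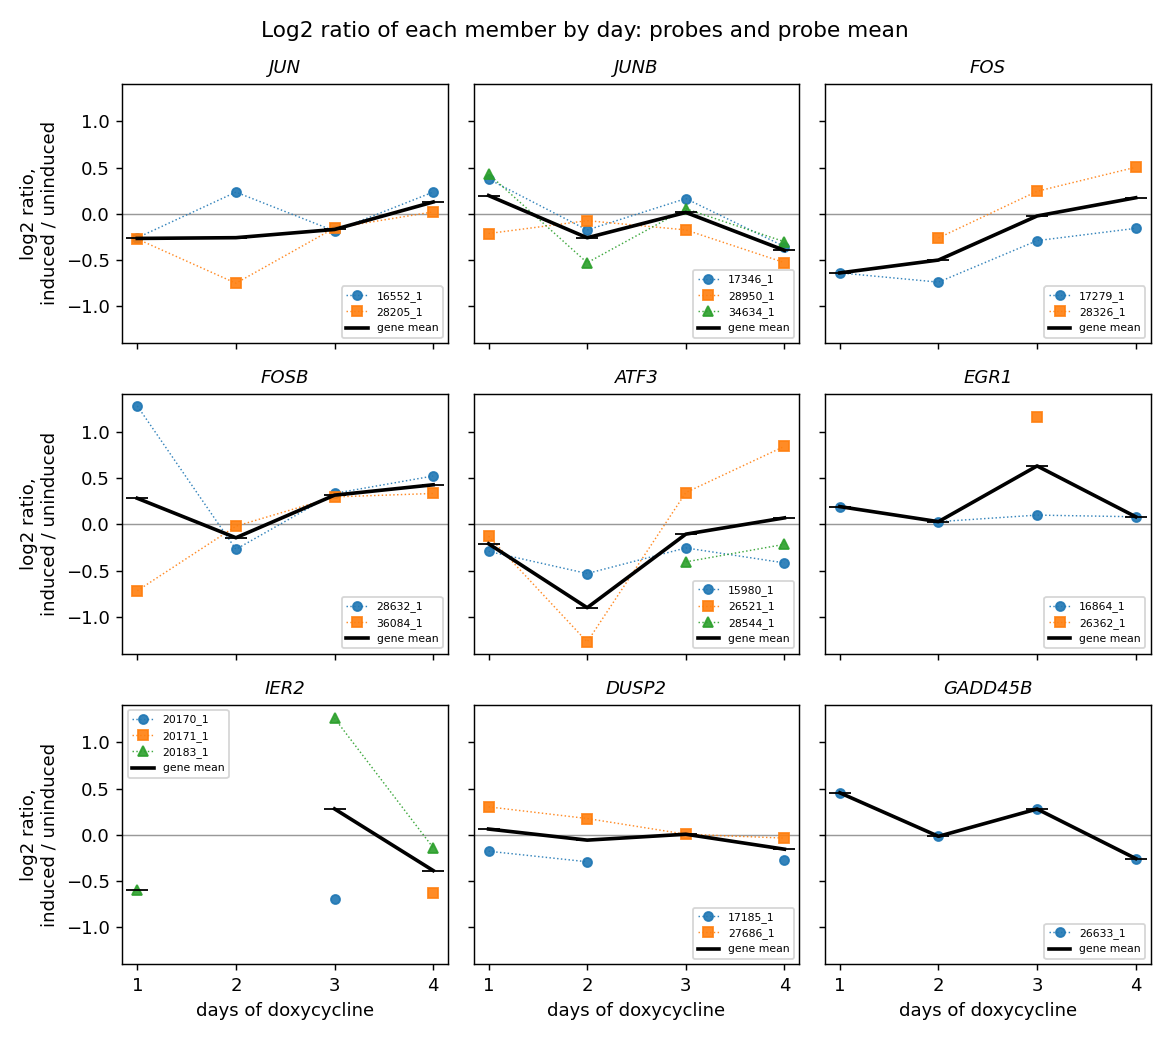
Log2 ratio, induced over uninduced, on days 1 to 4 of doxycycline for each of the 9 genes: dotted lines and markers are single probes and the black line is their mean. Both FOS probes with values lie lower on day 2 than on days 3 and 4. FOSB probes are furthest apart on day 1 (1.28 and -0.72), and the EGR1 value of 0.63 on day 3 includes a probe with no other value.

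Disagreement between probes was common on the array. Of the 6 genes with at least 2 probes with 3 or more values, 5 had probe means on both sides of 0, against 55.4% of 2127 named genes with as many probes. In 3 of these 5 genes a probe mean lay close to 0: JUN (0.006), JUNB (0.003) and FOSB (-0.027). The median distance between the highest and the lowest probe mean was 0.341 for the 6 genes and 0.306 for all 2127. Tested probe by probe, 8 of the 16 probes had means below 0 and 8 above, and 0 of 16 passed (limma, smallest adjusted p = 0.252), against 0.471% of all 11669 probes. An unadjusted p under 0.05 was found for 2 of the 16, FOS probe 17279_1 and ATF3 probe 15980_1, against 13.6% of all probes. Probes of the same gene read the same transcript and are not replicates of the condition. Among the probes of these genes 23.1% had no value on any array, against 4.65% of all probes with 1 gene symbol. The sources used here do not say what a missing value stands for, and its part in the gene values was not tested.

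On single days, with probes averaged, most values of the 9 genes lay within the general spread of the arrays. With values read as log2, a 2-fold difference was reached by 0 of the genes on any day, against 3.93%, 5.66%, 0.985% and 1.46% of all features on days 1, 2, 3 and 4. Read as natural logs, 1 gene value passed it, ATF3 on day 2 (fold 0.406), against 14.0% of all features on that array. Of 35 gene values 33 lay inside the middle 90% of features of their array, and the exceptions were ATF3 on day 2 and EGR1 on day 3. The features include unnamed probes (5073 of 15246 probes), each counted on its own, while most of the 9 genes average several probes. Gene values and features are thus not of like measure. On the log2 reading single probes reached 2-fold on 4 occasions: FOSB 28632_1 on day 1, ATF3 26521_1 on day 2, and IER2 20183_1 and EGR1 26362_1 on day 3. These were 6.67% of 15 probes with a value on day 1, 6.67% of 15 on day 2, 11.1% of 18 on day 3 and 0.0% of 18 on day 4. The probe background was 4.93%, 6.53%, 1.37% and 2.04% on days 1 to 4. The day 3 share was thus above the background, on 2 probes. In each of these 4 genes another probe with a value on that day was closer to 0 or of opposite sign.

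The median of the genes was 0.06, -0.20, 0.01 and 0.07 across days 1 to 4, against -0.06, -0.08, 0.01 and 0.00 for all features. Day 2 was the day on which 7 of the 8 measured genes were below 0. The median of all features was below 0 on that array too. Of the 7 genes, GADD45B (percentile 56.5) and DUSP2 (percentile 52.5) stood above that median. The median absolute log2 ratio of the genes was 0.266, 0.202, 0.17 and 0.173 on days 1 to 4, and that of all features 0.288, 0.283, 0.177 and 0.191. By this median the genes were no further from 0 than the typical feature on any of the 4 arrays. Features include single unnamed probes, while most of the genes average several probes, some of opposite sign. The medians of the genes and of all features are therefore not of like measure.

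**Figure D3:**
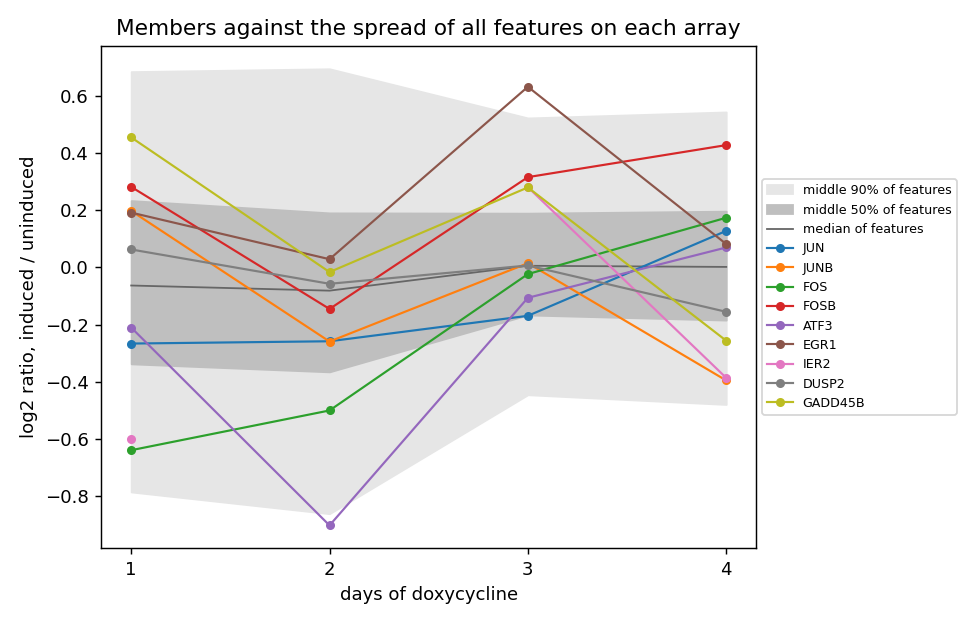
Log2 ratio, induced over uninduced, of the 9 genes on days 1 to 4 (coloured lines, probes averaged), over the middle 90% and middle 50% of all features of each array (light and dark grey) and their median (grey line). Of the 35 values 33 lie inside the light band, the exceptions being ATF3 on day 2 and EGR1 on day 3.

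The second comparison asked whether the genes moved with the length of induction. Days of induction and days in culture cannot be told apart here. None of the 8 genes with values on all 4 arrays passed (limma, 0 of 8), against 0.0% of 6427 features. FOS had the largest slope, 0.29 ± 0.08 log2 per day (SE, 4 arrays), with a 95% interval of 0.08 to 0.50. Its adjusted p of 0.304 equals the smallest of all 6427 features. The Benjamini-Hochberg adjustment gives that same value to every feature with a smaller unadjusted p, so the tie does not rank FOS first. The unadjusted p of FOS was 0.0148. An unadjusted p under 0.05 was found for 1 of the 8 genes, FOS, against 15.0% of all features, or 9.26% with a positive slope. Only 1 FOS probe entered on day 1, and on that probe alone the slope was 0.19 log2 per day. Once all arrays had been scaled to the same spread the FOS slope was 0.25 (limma adjusted p = 0.282).

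The other slopes had intervals that included 0. Slopes of ATF3 (0.16 ± 0.15), JUN (0.13 ± 0.08), FOSB (0.09 ± 0.11) and EGR1 (0.03 ± 0.12) were positive, and those of GADD45B (-0.18 ± 0.10), JUNB (-0.15 ± 0.10) and DUSP2 (-0.06 ± 0.08) negative (SE, 4 arrays each). The median of the 8 was 0.06, against 0.02 for all features. Slopes of opposite sign thus occurred within the JUN family, with JUN above 0 and JUNB below 0, and the difference between them was not tested.

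For the genes with the largest mean and the largest slope, the genes nearest in their 4 values were looked up by Euclidean distance among 3768 other named genes. ATF3 was nearest to SH3BP2 (distance 0.111 log2 units), HLX (0.129) and TTC39B (0.166). FOS was nearest to BCL2A1 (0.0675), CD84 (0.134) and ASB13 (0.155). BCL2A1 read -0.62, -0.51, 0.04 and 0.17 on days 1 to 4, each within 0.07 of FOS. With 4 arrays and so many genes, close matches of this kind are a description only.

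Lists of related genes were read beside these, by their counts and medians. Over all features, 0.337% were called on the mean and 56.0% lay below 0, with a median of -0.03. The unadjusted threshold (limma, p under 0.05) was passed by 6.0% of all features lower and 6.47% higher. These shares stand beside every list below. Other AP-1 and Maf partners had 7 measured genes, 2 below and 5 above 0, with a median of 0.06, and 0 were called. Of these genes 0 passed the unadjusted threshold. MAF, a large Maf factor, was lowest at -0.57 ± 0.84, resting on a day 2 value of -1.81. JUND, the JUN family member with steady expression in most cells, was at -0.08 ± 0.09, and FOSL2, a FOS relative, at 0.05 ± 0.10 (3 arrays). BATF3 was highest at 0.20 ± 0.67 (3 arrays), followed by ATF2 at 0.14 ± 0.54 and MAFG at 0.08 ± 0.36 (SD, 4 arrays unless given).

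Other immediate early genes had 24 measured genes, 17 below and 7 above 0, with a median of -0.06, and 0 were called (limma; 3 had an unadjusted p under 0.05, all lower, against 6.0% of all features lower at that threshold). The lowest were the matricellular protein gene CCN2 at -0.49 ± 0.43, the HLH inhibitor ID1 at -0.45 ± 0.51 and the G protein regulator RGS2 at -0.36 ± 0.15. RGS2 was below 0 on all 4 days, at -0.45, -0.45, -0.13 and -0.39 (limma adjusted p = 0.303). CCN2 read -0.97, -0.64, -0.38 and 0.04 on days 1 to 4, which like FOS was lowest on day 1 and highest on day 4. The highest were the survival gene MCL1 at 0.28 ± 0.18, the antiproliferative gene BTG1 at 0.21 ± 0.17 and the kinase PLK2 at 0.17 ± 0.29 (3 arrays).

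Genes that act upstream, the MAP kinase cascades and serum response factor with its partners, had 23 measured genes, 16 below and 7 above 0, with a median of -0.05 and 0 called. The unadjusted threshold was passed by 1 gene lower and 1 higher. Lowest was the p38 kinase MAPK11 at -0.47 ± 0.69 and highest the kinase RPS6KA1 at 0.68 ± 0.99, which rests on a day 1 value of 2.16.

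The other DUSP phosphatases had 8 measured genes, 5 below and 3 above 0, with a median of -0.08 and 0 called. Of these genes 0 passed the unadjusted threshold. Lowest were DUSP5 (-0.24 ± 0.38), DUSP7 (-0.17 ± 0.44) and DUSP4 (-0.12 ± 0.14), and highest DUSP3 (0.19 ± 0.15), DUSP12 (0.17 ± 0.93) and DUSP1 (0.03 ± 0.16). DUSP2 lay inside this range. The DUSP12 mean rests on a day 2 value of 1.51, and the most complete DUSP12 probe had a mean of -0.26.

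GADD45 family and partner genes had 7 measured genes, 3 below and 4 above 0, with a median of 0.16 and 0 called. The unadjusted threshold was passed by 1 gene lower and 1 higher. MAP3K4, the kinase that GADD45 proteins activate, was the highest at 0.41 ± 0.07, with values of 0.43, 0.33, 0.49 and 0.38 on days 1 to 4. It was above 0 on all 4 days (limma adjusted p = 0.226). The cell cycle inhibitor CDKN1A was at 0.28 ± 0.23 and the phosphatase PPM1D at 0.18 ± 0.17. The replication clamp PCNA was lowest at -0.41 ± 0.31, with the mitotic genes CDK1 (-0.26 ± 0.25) and CCNB1 (-0.08 ± 0.39) next.

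The ATF/CREB and stress response list had 12 measured genes, 5 below and 7 above 0, with a median of 0.03 and 0 called. The unadjusted threshold was passed by 0 genes lower and 1 higher. Highest was ATF6, the endoplasmic reticulum stress sensor, at 0.58 ± 0.16 (limma adjusted p = 0.137), with ATF2 and CREM (0.14 ± 0.28) next. Lowest were CEBPB (-0.30 ± 0.23), ATF5 (-0.27 ± 0.24) and the haem oxygenase HMOX1 (-0.07 ± 0.16). The list median was 0.40, -0.05, -0.10 and -0.17 on days 1 to 4, and 11 of 12 slopes were below 0, against 45.8% of all features, with 0 called. ATF3, which was kept out of this list, had a positive slope.

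Known targets and co-repressors of AP-1 and EGR1 had 14 measured genes, 5 below and 9 above 0, with a median of 0.11 and 0 called (limma; 6 at an unadjusted p under 0.05, 1 lower and 5 higher, against 6.0% and 6.47% of all features). Osteopontin (SPP1), a secreted matrix protein, was highest at 1.19 ± 0.83, with 0.51, 0.62, 2.32 and 1.30 on days 1 to 4 (limma adjusted p = 0.208). The adhesion receptor ICAM1 was lowest at -0.44 ± 0.27.

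As a yardstick, 16 measured NF-κB targets had a median of -0.23, 12 below and 4 above 0, while 56.0% of all features lay below 0. Among the targets 1 was called, the feedback inhibitor TNFAIP3, against 0.337% of all features. At an unadjusted p under 0.05 (limma), 5 were lower and 1 higher, against 6.0% and 6.47% of all features. TNFAIP3 read -1.07, -1.52, -1.58 and -1.70 on days 1 to 4, a mean of -1.47 ± 0.28 (SD, 4 arrays; limma adjusted p = 0.0178). The chemokine CCL3 was the highest of these targets at 0.69 ± 0.10. The call of TNFAIP3 was lost when any of the arrays of days 2, 3 or 4 was left out (adjusted p = 0.107, 0.117 and 0.0651), while its mean stayed between -1.60 and -1.39 without each array in turn. It was also lost once all arrays had the same spread (adjusted p = 0.057), with its most complete probe (mean -1.02, adjusted p = 0.0898) and on the arrays of days 1 and 2 (adjusted p = 0.211). No test of the difference between these targets and the immediate early genes was made.

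**Figure D4:**
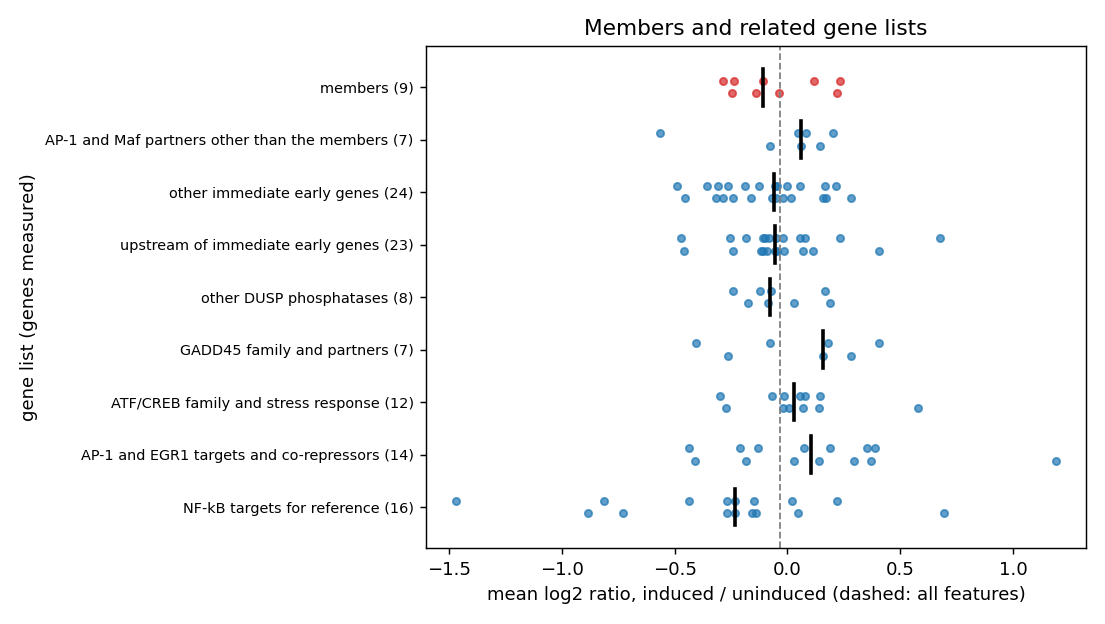
Mean log2 ratio, induced over uninduced, of each measured gene (circles) in the group described here (top row, 9 genes) and in 8 related lists, with the median of each list (black bars) and that of all features (dashed line). The 9 genes lie between -0.29 and 0.23, and the NF-κB targets reach from -1.47 (TNFAIP3) to 0.69 (CCL3).

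Markers of cell types were read the same way. Plasma cell markers had a median of 0.40, with 8 of 9 above 0 and 0 called, while 56.0% of all features lay below 0. They ran from MZB1 at -0.05 ± 0.12 to the immunoglobulin joining chain JCHAIN at 1.00 ± 0.50. At an unadjusted p under 0.05 (limma), 4 were higher and 0 lower, against 6.47% and 6.0% of all features. JCHAIN, at an adjusted p of 0.123 here, was called under 5 of 15 alternatives (adjusted p = 0.0111 to 0.0454). T cell markers (5 measured, median 0.05) ran from CD5 at -0.42 ± 0.22 to CD3D at 0.36 ± 0.41, and myeloid markers (4 measured) from AIF1 at -0.28 ± 0.30 (3 arrays) to CD14 at 0.37 ± 0.46. Among red cell and stromal markers (3 measured, median 0.10) β-globin, HBB, was called higher at 0.85 ± 0.09 (limma adjusted p = 0.0381), and HBA1 was lowest at -0.14 ± 0.42. The HBB call was lost without any 1 of the 4 arrays (adjusted p = 0.122, 0.16, 0.202 and 0.142 without days 1 to 4), with its most complete probe (0.0899) and with days 1 and 2 alone (0.211). The part of these shifts in the values of the immediate early genes was not tested.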

How the data were processed

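The deposited table holds log ratios, 1 column per two-colour array, with log2 assumed from the values because the base is not stated. Per the labels, Cy5 carried the induced and Cy3 the uninduced RNA. The sources used here do not give the authors' background correction, normalization or spot filter. The arrays were used as deposited, with medians between -0.068 and 0.004. Of 15246 probes, 10169 had 1 gene symbol, 4 several and 5073 are unnamed here, and symbols were updated by Entrez identifier through a RefSeq gene table for 10128 probes. Probes of a gene were averaged per array (9681 features). Features with at least 3 values were tested for a mean other than 0, and those with 4 values for a slope on day, with limma 3.58.1 in R 4.3.3 (lmFit, eBayes, two-sided, Benjamini-Hochberg over all features, threshold 0.05). Both fits were tested on simulated data. Errors are SDs over arrays for means and SEs for slopes. With 4 arrays, their number limits the precision. Promoter windows came from RefSeq (GRCh38.p14). The genes and lists were chosen with earlier results of these data known. Named genes were all 9 measured genes, each list's called genes, its lowest and highest gene (3 each for family lists), and the 3 nearest genes to the members with the largest mean and slope. The alternatives tried are given in the closing section.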

Additional observations from a re-analysis of the deposited data

Results flagged for a closer look

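Dixon's criterion takes the gap to the nearest day as a share of the range of all 4. By it, none of the 8 immediate early and stress-induced genes with 4 values had a day that stood apart from the other days. The same held for their probes with 4 values. IER2, with values on 3 arrays, was not examined. Of 66 sets of 4 values examined, 6 passed it, all in other named genes. Chance gives about 1 in 20 for sets not picked by their values. The other named genes were picked by their means, their calls or their closeness to ATF3 or FOS in these same data. That rate therefore does not apply to them, and no contrast with the 9 genes is drawn. JUND had a day 4 value of 0.053, with its other days between -0.131 and -0.101. ID1 had a day 2 value of -1.213, and HLX one of -0.948. RPS6KA1 had a day 1 value of 2.161, JCHAIN one of 1.751 and DUSP3 one of 0.42. Of these 6 values, 5 fell on the day 1 or day 2 array.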

How the results depend on the processing

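The 9 immediate early and stress-induced genes stayed uncalled on the mean under each of the 15 alternatives, and the 8 slopes under each of 9. IER2, with no day 2 value, could be fitted under 9 of the 15. Of 129 means under an alternative 8 changed sign, as did 6 of 72 slopes, and a cause was not tested for any. With the most complete probe of each gene in place of the average, the means of JUN (0.006), JUNB (0.003), IER2 (0.174) and DUSP2 (0.113) lay above 0. DUSP2 was also above 0 with probes with all 4 values (0.113), with days 1 and 2 alone (0.003) and at the upper end of -0.068 to 0.004 without each array in turn. FOS was at 0.075 with days 3 and 4 alone. Without each array in turn the means ran from -0.406 to -0.082 for ATF3, -0.387 to -0.117 for FOS, -0.231 to -0.1 for JUN, -0.213 to -0.015 for JUNB, 0.151 to 0.342 for FOSB, 0.101 to 0.302 for EGR1 and 0.003 to 0.24 for GADD45B. With the most complete probe the slopes of FOSB (-0.167), ATF3 (-0.009) and EGR1 (-0.026) were negative. The EGR1 slope was also -0.026 with probes with all values, and ran from -0.028 to 0.22 without each array in turn. The FOS slope had adjusted p-values from 0.0972 to 0.911.

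The number of features called on the mean, 26 as deposited, was 291 with array weights, 42 with values on all 4 arrays, 55 with every probe its own feature, 1 with days 1 and 2 alone, 569 with days 3 and 4 alone and 3 to 5 without each array in turn. It was 0 on the slope throughout. Calls were gained 20 times among the other named genes. With array weights these were MAP3K4 (adjusted p = 0.0423), ATF6 (0.0332), SPP1 (0.0136), CCL3 (0.00553), JCHAIN (0.0169), CD3D (0.0461) and, lower, CD5 (0.0454). With days 3 and 4 alone they were BATF3 (0.0458), SPP1 (0.0047), CCL3 (0.0102), JCHAIN (0.0111), CD3D (0.0163), CD14 (0.0411) and, lower, CD5 (0.0433) and PCNA (0.0389). CCL3 was also called with values on all arrays (0.0499) and with a variance trend (0.0377), and JCHAIN with the most complete probe (0.038), the median of the probes (0.0454) and probes with all values (0.0349). As to sign, array weights put MAFG at -0.044, ATF2 at -0.122, DUSP7 at 0.061 and DUSP12 at -0.253. The most complete probe put DUSP4 at 0.013, DUSP12 at -0.262, PPM1D at -0.066 and HLX at 0.113. Probes with all values gave 0.013 for DUSP4 and -0.262 for DUSP12, and the median of the probes gave -0.024 for DUSP1 and -0.021 for PPM1D. Days 1 and 2 alone put DUSP1 at -0.081 and CCNB1 at 0.126. Days 3 and 4 alone put FOSL2 at -0.006, ATF2 at -0.23, MAPK11 at 0.095, DUSP7 at 0.171, DUSP12 at -0.459, HMOX1 at 0.006, SH3BP2 at 0.03, BCL2A1 at 0.106, CD84 at 0.065 and ASB13 at 0.06. Without each array in turn the means ran from -0.112 to 0.271 for ATF2, -0.257 to 0.048 for CCNB1, -0.008 to 0.109 for DUSP1, -0.283 to 0.393 for DUSP12, -0.295 to 0.021 for DUSP7 and -0.032 to 0.231 for MAFG. If the deposited values are natural logs, the folds of the 9 genes run from 0.751 (ATF3) to 1.26 (EGR1). With 2 or 3 arrays a fit has few degrees of freedom, and no spot brightness was available to filter dim spots.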
